A study of Mus musculus with 8 samples.

Results

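The genes described here were 10 transcripts widely used to mark the fibroblasts of peripheral nerve, namely Pdgfra, Dcn, Lum, Fbln1, Pi16, Dpt, Mfap5, Clec3b, Cd34 and Thy1. They were chosen by name from 53090 annotated genes, and all 10 passed the filter on low counts that left 17090 genes for testing. RNA was sequenced from sciatic nerves of mice at postnatal day 7 (P7), with 4 WT and 4 Nae1 cKO nerves. Nae1 encodes a subunit of the enzyme that activates NEDD8, a ubiquitin-like protein that is attached to cullins and other targets. The Nae1 cKO mice carried a Cre transgene and 2 floxed Nae1 alleles, made from a knockout-first allele. The nerves labelled WT came from littermates without Cre that carried 1 or 2 floxed Nae1 alleles, so both groups shared the floxed allele. Cre was directed to Schwann cells, and Nae1 was not measured in fibroblasts apart from the other cells of the nerve. Nae1 itself was 82.9 ± 5.07 CPM (counts scaled to library size, SD, n = 4) in WT and 51.8 ± 6.56 CPM in Nae1 cKO nerves, and the groups did not overlap (log2 fold change −0.68, edgeR adjusted p = 0.000277).

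A peripheral nerve holds several connective tissue layers. Endoneurial fibroblasts lie among the axons inside each fascicle, perineurial cells form the sheath around the fascicle, and epineurial fibroblasts lie outside it together with vessels and fat. Pdgfra, Dcn and Lum are expressed by fibroblasts of both the endoneurium and the epineurium, whereas Pi16, Dpt, Mfap5 and Clec3b are known for the epineurium and for the adventitia of vessels. Cd34 also marks endothelium, and Thy1 is also made by neurons and T cells.

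Pdgfra, Dcn, Lum and Cd34 were higher in Nae1 cKO nerves, by 0.58 to 1.06 on the log2 scale, and in each of them every Nae1 cKO nerve lay above every WT nerve. The other 6 genes did not pass the test, and these included all 4 genes of the epineurial and adventitial kind. The called genes were also the most abundant, with WT means of 68.3 to 539 CPM, against 1.97 to 32.1 CPM for the others. Upper 95% limits of 1.09 for Pi16, 1.60 for Dpt and 1.38 for Mfap5 allowed rises as large as those called, and that of Clec3b was 0.38. Layer and abundance are therefore not separated by these calls. In the edgeR quasi-likelihood test across all genes, with a Benjamini-Hochberg adjusted p under 0.05 as the call, 4 of 10 fibroblast genes were higher, against 14.1% of all genes tested. By the same call no fibroblast gene was lower, against 12.3% of all genes tested. Without adjustment, at p under 0.05 in this test, no fibroblast gene was lower either. The share of all genes at that looser threshold is not given here. Lum alone was called and over 2-fold higher, against 4.25% of all genes. The 4 genes whose groups did not overlap in CPM stand against 14.9% of all genes in which every Nae1 cKO nerve exceeded every WT nerve. The median log2 fold change of the 10 genes was 0.57, beside 0.0066 over all genes tested, and it was 0.31 without the WT nerve L9 and the Nae1 cKO nerve K2. For each of the 4 higher genes the two-sided exact permutation p was 0.0286, the smallest that 4 against 4 nerves can give. In a bulk nerve, more fibroblasts and more RNA per fibroblast cannot be told apart.

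**Figure D1:**
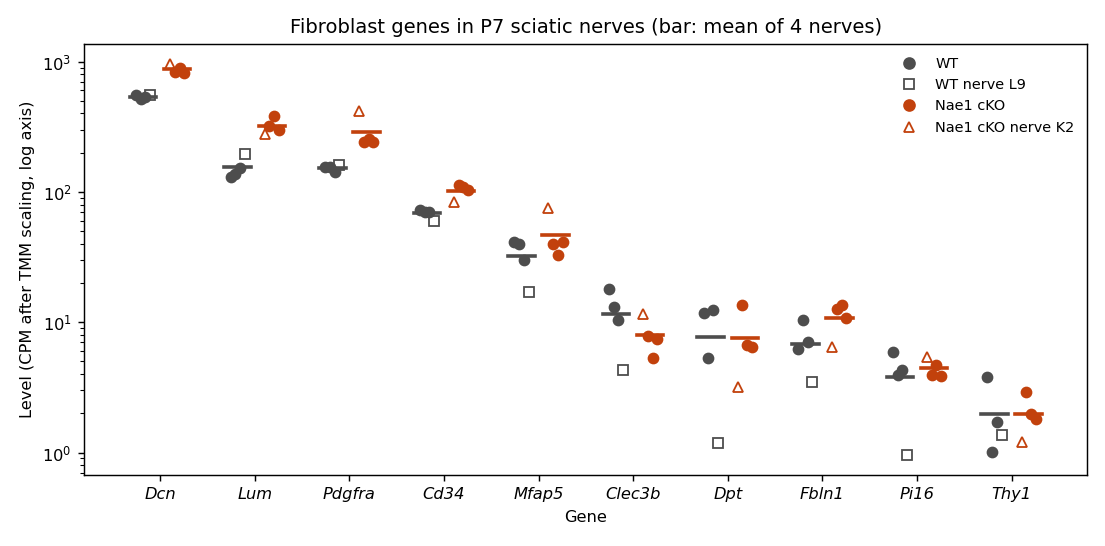
Level of each fibroblast gene in CPM on a log axis, with 1 point per nerve and a bar at the mean of 4 nerves, for WT (gray) and Nae1 cKO (orange). The groups are apart for Dcn, Lum, Pdgfra and Cd34 and overlap for the other 6 genes, and the WT nerve L9 (open square) is the lowest of all nerves for Pi16, Dpt, Mfap5, Clec3b and Fbln1.

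The library totals were alike, from 13508752 to 14766770 estimated counts in WT and from 12962798 to 13855366 in Nae1 cKO nerves. A nerve of each genotype stood apart, each in the measures given next. In the Nae1 cKO nerve K2 the noncoding RNA 7SK took 4.70% of counts, against 1.94% to 2.66% in the other nerves, and mitochondrial genes took 1.54%, against 2.19% to 4.23%. The WT nerve L9 was low for many epineurial, perineurial, mural cell and skeletal muscle markers. Over all genes it did not stand apart, with a chi-square per gene of 16.0 to 19.7 against the other WT nerves. The WT nerves L3 and L4 differed by 22.9 on that measure. The labels give 4 nerves per genotype, with names in K or L whose meaning is not stated, and do not say how the replicates were taken. The p-values treat these nerves as independent and may be too small if nerves of a group shared an animal.

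Promoter sequences were available for 5 of the 10 genes (RefSeq, GRCm38.p6, 250 bases before to 50 after the start), and 4 are shown because Pdgfra and Cd34 were higher in Nae1 cKO nerves while Dpt and Pi16 were not called. They lie at chr5:75152001-75152300 (Pdgfra), chr1:194938571-194938870 (Cd34), chr1:164796413-164796712 (Dpt) and chr17:29318632-29318931 (Pi16), all on the plus strand. Both strands were searched for 3 core promoter motifs, the TATA box TATAAA, the CCAAT box CCAAT and the GC box GGGCGG, and matches are in capitals.
Pdgfra: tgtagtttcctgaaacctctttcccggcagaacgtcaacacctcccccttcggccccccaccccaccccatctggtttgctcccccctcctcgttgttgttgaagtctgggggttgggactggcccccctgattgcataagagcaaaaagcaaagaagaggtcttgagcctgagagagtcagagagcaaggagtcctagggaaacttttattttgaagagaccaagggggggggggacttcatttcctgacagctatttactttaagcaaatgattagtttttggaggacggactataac
Cd34: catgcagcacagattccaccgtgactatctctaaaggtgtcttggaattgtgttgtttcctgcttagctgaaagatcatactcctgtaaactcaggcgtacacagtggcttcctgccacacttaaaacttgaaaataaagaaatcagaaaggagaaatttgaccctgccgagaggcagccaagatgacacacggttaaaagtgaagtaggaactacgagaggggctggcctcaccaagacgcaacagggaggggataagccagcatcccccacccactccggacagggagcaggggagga
Dpt: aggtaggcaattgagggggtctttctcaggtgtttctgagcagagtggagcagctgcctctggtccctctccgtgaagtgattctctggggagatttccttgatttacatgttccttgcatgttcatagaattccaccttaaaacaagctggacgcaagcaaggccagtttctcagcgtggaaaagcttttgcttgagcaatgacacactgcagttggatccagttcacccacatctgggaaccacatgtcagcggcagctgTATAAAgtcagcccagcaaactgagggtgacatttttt
Pi16: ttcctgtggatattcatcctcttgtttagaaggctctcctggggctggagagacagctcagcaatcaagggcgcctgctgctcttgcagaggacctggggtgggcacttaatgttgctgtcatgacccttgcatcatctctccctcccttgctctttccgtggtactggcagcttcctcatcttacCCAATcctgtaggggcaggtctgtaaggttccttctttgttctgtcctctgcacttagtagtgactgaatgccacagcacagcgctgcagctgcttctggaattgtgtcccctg
The Dpt window held TATAAA, a motif present in 13.6% of 32851 promoters. It began 12 bases past the RefSeq start, so these letters lie inside the gene and not before its start. The Pi16 window held CCAAT beginning 64 bases before the RefSeq start, which lies 1.2 kb inside the gene as GENCODE draws it, a motif present in 37.4% of promoters. The windows of Pdgfra and Cd34 held none of the 3 motifs. GGGCGG, present in 35.7% of promoters, was not in these 4 windows and was found on both strands at 1 of the 2 annotated starts of Fbln1.

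Among the surface proteins, Pdgfra encodes the receptor for PDGF ligands that is carried by fibroblasts and their precursors (chr5:75152292-75198215, plus strand). Its level was 156.0, 154.1, 143.2 and 161.0 CPM in the WT nerves K1, L3, L4 and L9. It was 417.7, 241.5, 252.4 and 242.0 CPM in the Nae1 cKO nerves K2, L1, L5 and L8. The WT nerves were close together, K2 was far above the rest, and the other Nae1 cKO nerves were still above all WT nerves. Pdgfra was higher by 0.91 on the log2 scale (SE 0.17, 95% interval 0.54 to 1.28, edgeR adjusted p = 0.00239). Without K2 the log2 fold change was 0.67 and the call held. It was lost without the WT nerves K1 and L4, at a log2 fold change of 0.87 and an edgeR adjusted p of 0.0514.

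Cd34 encodes a sialomucin on fibroblasts, endothelial cells and progenitors (chr1:194938819-194961279, plus strand). Its level was 72.61, 70.23, 70.01 and 60.3 CPM in WT nerves K1, L3, L4 and L9, and 84.11, 112.1, 109.8 and 103.4 CPM in Nae1 cKO nerves K2, L1, L5 and L8. L9 was the lowest WT nerve and K2 the lowest Nae1 cKO nerve, and the groups did not overlap. Cd34 was higher by 0.58 on the log2 scale (SE 0.10, 95% interval 0.37 to 0.80, edgeR adjusted p = 0.000979). It did not pass on the log2(TPM + 1) scale (limma adjusted p = 0.073), where K2, at 17.6 TPM, lay below all WT nerves. Of 10 endothelial markers, none was higher and 3 were lower, with a summed level of 275.4 to 338.0 CPM in WT and 215.0 to 256.4 CPM in Nae1 cKO nerves. An antisense gene, Gm16897, overlaps Cd34 and had 23 to 54 counts per nerve, against 759 to 1615 for Cd34.

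Thy1, a GPI-anchored protein of fibroblasts, neurons and T cells (chr9:44043384-44048579, plus strand), had 14 to 52 counts per nerve. Its level was 3.80, 1.01, 1.72 and 1.35 CPM in WT nerves K1, L3, L4 and L9, and 1.19, 2.93, 1.97 and 1.81 CPM in Nae1 cKO nerves K2, L1, L5 and L8. The highest nerve was a WT nerve, and the groups overlapped over most of their range. The 95% interval of the log2 fold change, from −0.88 to 0.89, included changes of either sign (edgeR adjusted p = 0.995). None of 5 T cell markers was abundant enough to be tested.

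**Figure D2:**
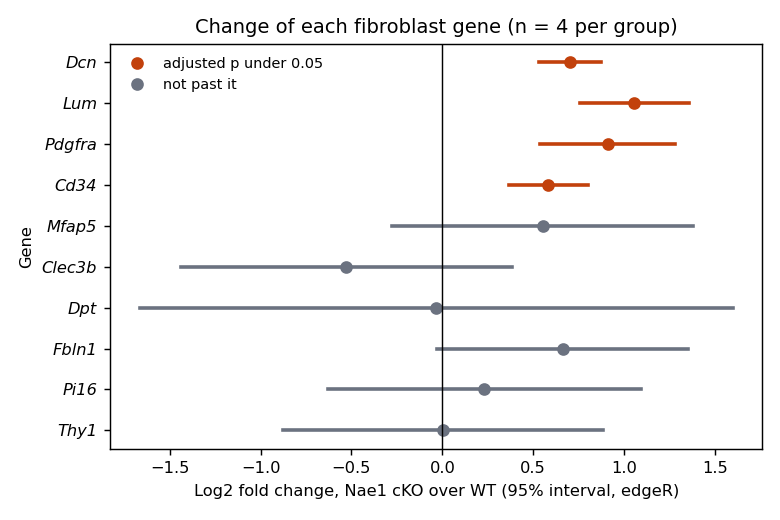
Log2 fold change of each fibroblast gene, Nae1 cKO over WT, with its 95% interval from edgeR (4 nerves per group). The intervals of Dcn, Lum, Pdgfra and Cd34 lie above 0, and that of Dpt, from −1.67 to 1.60, is the widest of the 10.

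The matrix proteins Dcn and Lum are small leucine-rich proteoglycans that bind collagen fibrils and limit their thickness. Dcn (decorin, chr10:97479609-97518143, plus strand) was measured at 551.7, 520.4, 533.5 and 550.6 CPM in WT nerves K1, L3, L4 and L9, and at 965.1, 828.6, 893.4 and 820.9 CPM in Nae1 cKO nerves K2, L1, L5 and L8. All Nae1 cKO nerves were well above the narrow WT range. Dcn was higher by 0.70 on the log2 scale (SE 0.077, 95% interval 0.53 to 0.87, edgeR adjusted p = 3.87e-05), and its SE was the smallest of the 10.

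Lum (lumican, chr10:97565128-97572703, plus strand) was measured at 131.1, 137.0, 153.4 and 196.2 CPM in WT nerves K1, L3, L4 and L9, and at 277.9, 323.0, 384.5 and 299.1 CPM in Nae1 cKO nerves K2, L1, L5 and L8. L9 was here the highest WT nerve, and it was still below every Nae1 cKO nerve. Lum was higher by 1.06 on the log2 scale (SE 0.14, 95% interval 0.76 to 1.36, edgeR adjusted p = 0.000175). Dcn and Lum are neighbours, 47.0 kb apart, and the proteoglycan genes Kera and Epyc follow on the same strand. Epyc (epiphycan) was 1.83 to 5.24 CPM in WT and 13.5 to 21.5 CPM in Nae1 cKO nerves, higher by 2.07 on the log2 scale (edgeR adjusted p = 0.000192). Kera (keratocan), which lies between Lum and Epyc, had 0 to 12 counts per nerve and was not tested.

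Fbln1 and Mfap5 encode proteins of elastic fibers and microfibrils. Fbln1 (fibulin 1, chr15:85205949-85286535, plus strand) was 6.28, 10.43, 7.03 and 3.50 CPM in WT nerves K1, L3, L4 and L9, and 6.42, 12.54, 13.46 and 10.73 CPM in Nae1 cKO nerves K2, L1, L5 and L8. Among the Nae1 cKO nerves K2 alone lay within the WT range. The log2 fold change was 0.66 (95% interval −0.03 to 1.35, edgeR adjusted p = 0.15). Fbln1 passed without L3, its highest WT nerve (0.94, adjusted p = 0.0399). It also passed without both L9 and K2, the lowest nerve of each group (0.62, adjusted p = 0.0267). Leaving out L3 raises the estimate by construction, and leaving out L9 and K2 narrows the range of both groups. Neither pass is therefore separate evidence of a rise in Fbln1.

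Mfap5 (microfibril associated protein 5, chr6:122505845-122529290, plus strand) was 41.35, 40.11, 29.84 and 16.92 CPM in WT nerves K1, L3, L4 and L9, and 74.7, 39.78, 32.5 and 41.33 CPM in Nae1 cKO nerves K2, L1, L5 and L8. The lowest value was from L9 and the highest from K2, and the remaining 6 nerves overlapped. The log2 fold change was 0.55 (95% interval −0.28 to 1.38, edgeR adjusted p = 0.308). Without both L9 and K2 it was 0.02. Leaving out the lowest WT and highest Nae1 cKO nerve lowers this estimate by construction.

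Pi16, Dpt and Clec3b varied more within the WT group than between the groups. Pi16 (peptidase inhibitor 16, a marker of adventitial fibroblasts, chr17:29317680-29330593, plus strand) was 5.92, 3.91, 4.30 and 0.953 CPM in WT nerves K1, L3, L4 and L9, and 5.37, 3.90, 4.69 and 3.83 CPM in Nae1 cKO nerves K2, L1, L5 and L8. All nerves but L9 lay in one narrow range. The log2 fold change was 0.23 (95% interval −0.63 to 1.09, edgeR adjusted p = 0.711).

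Dpt (dermatopontin, a matrix protein that binds decorin, chr1:164796644-164824266, plus strand) was 11.83, 5.36, 12.34 and 1.19 CPM in WT nerves K1, L3, L4 and L9, and 3.21, 13.65, 6.73 and 6.48 CPM in Nae1 cKO nerves K2, L1, L5 and L8. The groups covered the same range, with L9 lowest and the Nae1 cKO nerve L1 highest. The log2 fold change was −0.03 (95% interval −1.67 to 1.60, edgeR adjusted p = 0.978), and the interval included changes of over 2-fold in both directions. Its sign was above 0 in 12 and below 0 in 10 of 22 alternative fits.

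Clec3b (tetranectin, a plasminogen-binding protein, chr9:123150946-123157432, plus strand) was 18.12, 13.18, 10.47 and 4.29 CPM in WT nerves K1, L3, L4 and L9, and 11.57, 7.80, 5.30 and 7.39 CPM in Nae1 cKO nerves K2, L1, L5 and L8. Its estimate was the lowest of the 10, and L9 was below all Nae1 cKO nerves while the other WT nerves were mostly above them. The log2 fold change was −0.53 (95% interval −1.44 to 0.38, edgeR adjusted p = 0.384). Without L9 it was −0.80 (adjusted p = 0.0504), and without both L9 and K2 it was −1.04 and passed (adjusted p = 0.00418). For Clec3b, L9 was the lowest WT nerve and K2 the highest Nae1 cKO nerve. Leaving out both therefore lowers the estimate by construction, and this pass is no separate evidence of a fall.

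**Figure D3:**
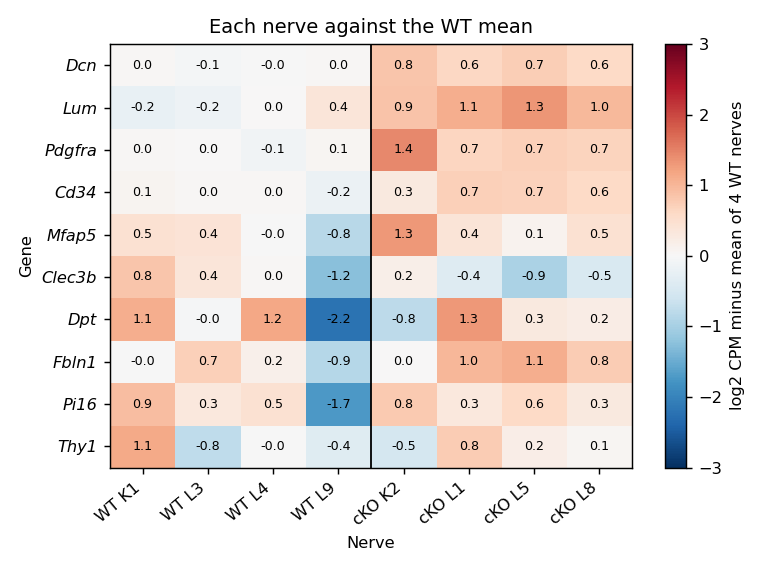
Log2 CPM of each fibroblast gene (rows) in each nerve (columns), minus the mean of the 4 WT nerves, in color and as printed values. The column of WT nerve L9 is blue for Mfap5, Clec3b, Dpt, Fbln1 and Pi16 and near 0 for Dcn and Pdgfra, and the Nae1 cKO nerve K2 is the highest of all nerves for Dcn, Pdgfra and Mfap5.

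The WT nerve L9 was low for some of the 10 genes and not for others. Against the mean of the other 3 WT nerves, L9 had 12.1% of the Dpt level, 20.2% of Pi16, 30.8% of Clec3b, 44.2% of Fbln1 and 45.6% of Mfap5. It had 85.0% of Cd34, 103% of Dcn, 107% of Pdgfra and 140% of Lum, and Thy1 lay between these sets at 62.0%. The summed level of Pi16, Dpt, Mfap5 and Clec3b was 77.2, 62.6, 57.0 and 23.4 CPM in WT nerves K1, L3, L4 and L9, and 94.9, 65.1, 49.2 and 59.0 CPM in Nae1 cKO nerves K2, L1, L5 and L8. L9 was therefore alone in its low level, and the other nerves of both genotypes overlapped. These 4 genes were summed after their values were seen.

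Markers of several other cell types were low in L9 as well, though not those of fat, Schwann cells, macrophages or neurons. L9 was the lowest WT nerve for 6 of 10 fibroblast genes, 11 of 14 other epineurial and adventitial markers, 6 of 7 perineurial markers, 8 of 9 mural cell markers and 12 of 12 skeletal muscle markers, beside 26.7% of all genes tested. It was the lowest for 0 of 6 endoneurial fibroblast markers and for 0 of 5 adipocyte markers. For Schwann cell markers this was 1 of 9, for macrophage markers 3 of 12 and for neuronal markers 1 of 7. It was 4 of 10 for endothelial markers, 10 of 15 for elastic fiber genes and 6 of 10 for other leucine-rich proteoglycans. The adipocyte sum was 11.1 CPM in L9, within the 4.78 to 29.7 CPM of the other WT nerves, and 5.17 to 41.1 CPM in Nae1 cKO nerves. Sfrp4, a secreted Wnt modulator, was 25.1, 25.9, 23.2 and 4.93 CPM in WT nerves K1, L3, L4 and L9. The summed level of the 12 muscle markers ran from 132 CPM in L9 to 2139 CPM in L4 among WT nerves and from 64.7 to 179 CPM in Nae1 cKO nerves, with 5 markers lower and none higher. The part of such differences in the values of Pi16, Dpt, Mfap5, Clec3b and Fbln1 was not tested.

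Levels can be compared between genes per transcript length, as deposited in TPM, a measure scaled to the total transcript abundance of each nerve. In WT nerves the order of mean TPM was Dcn (222 ± 22.9, SD, n = 4), Lum (45.0 ± 12.3), Cd34 (19.7 ± 1.68), Pdgfra (18.4 ± 1.61), Mfap5 (15.9 ± 5.15), Clec3b (8.74 ± 3.69), Dpt (3.17 ± 2.24), Fbln1 (1.83 ± 0.726), Pi16 (1.15 ± 0.589) and Thy1 (0.925 ± 0.662). Dcn was apart from Lum and Lum from Cd34, whereas all later neighbours in this order overlapped. In Nae1 cKO nerves Dcn (398 ± 81.0 TPM) and Lum (105 ± 33.5 TPM) again led without overlap. Pdgfra (36.9 ± 3.80 TPM), Cd34 (33.6 ± 11.8 TPM) and Mfap5 (24.5 ± 4.06 TPM) followed. Cd34 overlapped with both Pdgfra and Mfap5, which were apart from each other. Mfap5 was apart from Clec3b (6.73 ± 1.57 TPM), and Dpt (3.89 ± 3.01 TPM), Fbln1 (3.41 ± 1.55 TPM), Thy1 (1.50 ± 1.12 TPM) and Pi16 (1.47 ± 0.353 TPM) came last, each overlapping its neighbours.

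The 2 scales differed for K2. Pdgfra in K2 was 36.7 TPM, within the 34.0 to 42.3 TPM of the other Nae1 cKO nerves, although its CPM stood far above them. As for Cd34, Lum in K2 was low in TPM, at 59.0 TPM and below the 60.9 TPM of L9. In TPM the groups were thus apart for 2 of the 10 genes, Pdgfra and Dcn, rather than for 4, beside 8.48% of all genes in which every Nae1 cKO nerve exceeded every WT nerve in TPM.

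Related genes were taken from lists named for each family or layer. In the small leucine-rich proteoglycan family, 10 genes besides Dcn and Lum were tested, with 1 higher (Epyc), 1 lower and a median log2 fold change of 0.36. The lower gene was Ogn (osteoglycin), at 889 ± 169 CPM in WT and 624 ± 106 CPM in Nae1 cKO nerves (log2 fold change −0.51, edgeR adjusted p = 0.0243). Among 15 fibulins, fibrillins and other elastic fiber genes besides Fbln1 and Mfap5, 7 were higher, none was lower and the median was 0.43. Fbn1 (fibrillin 1, the main microfibril protein) was 672 ± 28.4 CPM in WT and 974 ± 24.6 CPM in Nae1 cKO nerves (0.53, edgeR adjusted p = 0.000147). Ltbp1, which tethers latent TGFβ to the matrix (0.92, adjusted p = 0.000208), Emilin1, an elastic fiber glycoprotein (1.18, adjusted p = 0.00021), and Fbln5, which is needed for elastic fiber assembly (1.16, adjusted p = 0.00136), were also higher. Eln, elastin itself, was 46.2 ± 20.9 CPM in WT and 36.6 ± 7.47 CPM in Nae1 cKO nerves and did not pass (adjusted p = 0.563).

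Of the ligands and other receptors of the PDGF system, 2 of 6 were higher, none was lower and the median was 0.41. Pdgfa, a ligand of the Pdgfra receptor, was 29.6 to 34.7 CPM in WT and 49.7 to 68.2 CPM in Nae1 cKO nerves (log2 fold change 0.91, edgeR adjusted p = 4.83e-05). Pdgfrl, a receptor-like gene, was higher by 0.82 (adjusted p = 0.0238). Pdgfrb, the receptor of pericytes and also of fibroblasts, had an estimate of −0.18 and did not pass (adjusted p = 0.115). Pdgfc was 44.6 CPM in K2 and 11.9 to 17.2 CPM in the other 7 nerves.

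Endoneurial fibroblast markers besides the 10 genes gave 2 higher of 6 tested, none lower and a median of 0.46. Etv1, an ETS transcription factor, was higher by 1.05 (edgeR adjusted p = 9.79e-05) and Abca9, a lipid transporter of the ABC family, by 0.61 (adjusted p = 0.000554). Meox1, a homeobox factor, was 11.1 ± 2.27 CPM in WT and 22.1 ± 8.96 CPM in Nae1 cKO nerves and did not pass (adjusted p = 0.0598). Its level in the Nae1 cKO nerve K2, 8.88 CPM, lay within the WT range of 7.82 to 12.7 CPM. Sox9 (0.26, edgeR adjusted p = 0.172), Plxdc1 (0.31, adjusted p = 0.474) and Osr2 (−0.18, adjusted p = 0.508) did not pass. Wif1, a secreted Wnt inhibitor, was too low to be tested, with 0, 0, 2 and 1 counts in WT nerves and 18, 13, 10 and 10 in Nae1 cKO nerves. Of 14 further epineurial and adventitial markers, 1 was higher, 1 was lower and 12 did not pass, with a median of 0.16. Sema3c, a secreted semaphorin, was higher by 0.85 (edgeR adjusted p = 2.19e-05), and Efhd1, a mitochondrial calcium-binding protein, was lower at −0.96 (adjusted p = 2.35e-05). Among 4 mesenchymal transcription factors (Twist1, Twist2, Prrx1 and Osr1) none passed in either direction, and Tcf21 was at 0 in all nerves.

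**Figure D4:**
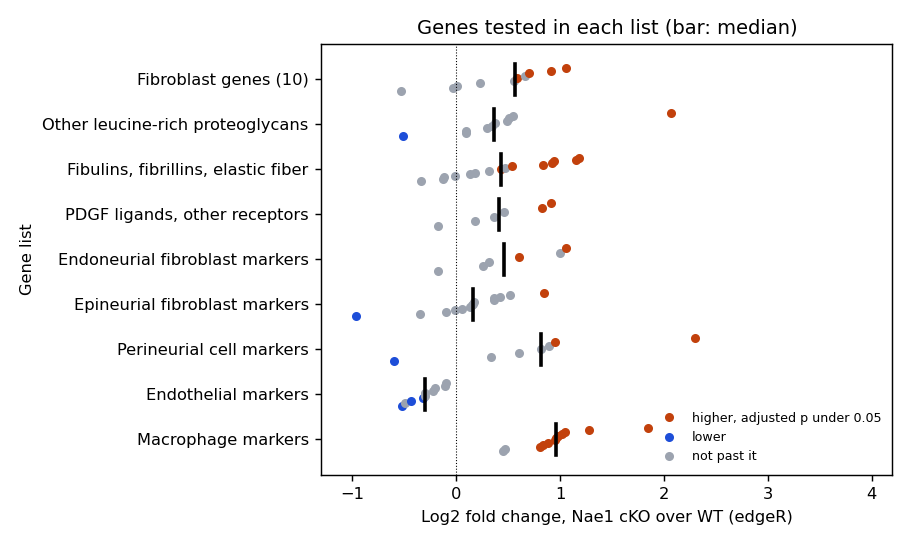
Log2 fold change, Nae1 cKO over WT, of each gene tested in 9 lists, with a bar at the median of each list and color for edgeR adjusted p under 0.05. The 10 fibroblast genes have a median of 0.57, the other epineurial markers 0.16, and the macrophage markers 0.96.

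Markers of other cells moved with the genotype beside the fibroblast genes. Of 12 macrophage markers 10 were higher and none was lower, with a summed level of 235.9 to 256.4 CPM in WT and 421.5 to 528.2 CPM in Nae1 cKO nerves. Of 9 Schwann cell markers 1 was higher and 4 were lower, and their sum was 13900 to 23340 CPM in WT and 5957 to 6927 CPM in Nae1 cKO nerves. Of 7 perineurial markers 2 were higher (Ntng1, 0.96, and Moxd1, 2.30) and 1 was lower (Itgb4, −0.60), and the sums overlapped, from 151.3 to 262.3 CPM in WT and from 193.6 to 321.7 CPM in Nae1 cKO nerves. Whether these changes contributed to the levels of Pdgfra, Dcn, Lum and Cd34 was not tested.

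The genes whose profile over the 8 nerves was nearest to that of each fibroblast gene were found by the root mean square difference of centred log2 CPM. Nearest to Pdgfra was Tspan2, a tetraspanin, at 0.09, and nearest to Dcn was Akap2, a kinase anchoring protein, at 0.04. Nearest to Lum was Gbp3, a guanylate-binding protein, at 0.12, and nearest to Cd34 was Tmem138 at 0.06. Fbln1 lay nearest to Sox11 (0.18), Mfap5 to Nalcn (0.12), Pi16 to Boc (0.30), Clec3b to Myh11, a smooth muscle myosin (0.30), and Thy1 to Mgme1 (0.33). Serpinf1 (0.14) and Csf1 (0.15) were among the 5 genes nearest to the mean profile of all 10. Dpt lay nearest to Sfrp4, Mfap4, Angptl1, Eln and Fabp4, at 0.51 to 0.67, which is farther than the nearest genes of the other 9. These differences are not scaled to the spread of each profile. That spread was largest for Dpt, with a root mean square of 1.06, against 0.32 to 0.72 for the other 9.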

How the data were processed

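Total RNA of P7 sciatic nerves (4 WT, 4 Nae1 cKO) was depleted of ribosomal and globin RNA and sequenced as stranded libraries. The authors deposited, per nerve, RSEM gene tables with expected counts, TPM and FPKM. STAR, RSEM, FastQC 0.11.5 and the GRCm38 build are listed in the submitters' notes, and the annotation release and strand setting were not given in the sources used here. Reads shared between similar genes are split by RSEM.

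Expected counts were rounded and tested with edgeR 4.0.16 (R 4.3.3) after filterByExpr and TMM scaling, by the robust quasi-likelihood test with Benjamini-Hochberg adjustment over 17090 genes. The published methods used another caller on other counts, and the counts were tested here with edgeR. CPM are TMM-scaled. Deposited TPM served to compare genes, and both deposited TPM and FPKM served, as log2(value + 1), for limma 3.58.1. DESeq2 1.42.0, limma-voom, other scalings and filters and left-out nerves were alternatives. The test was checked on simulated counts. Two-sided exact permutation tests of 4 against 4 nerves cannot go below p = 0.0286. Gene coordinates are from GENCODE M21 (GRCm38), which matched 52403 of 53090 IDs. No replicate pair agreed within sampling noise (chi-square per gene from 3.81 to 50.8). The pairs that held K2 gave 37.9 to 50.8, the other Nae1 cKO pairs 3.81 to 8.85, and the WT pairs 11.2 to 22.9. Pairs with L9 lay within this WT range.

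The text names the 10 fibroblast genes, Nae1, up to 4 genes of each related list with the smallest adjusted p, and the nearest profiles (5 per gene, mean count of at least 50). Wif1, Kera, Meox1, Sox9, Plxdc1, Osr2, Eln, Sfrp4 and the genes given for single nerves were named after their values were seen. The members and lists were chosen with earlier results of these data known. The name of the Cre line is not reported here.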

Additional observations from a re-analysis of the deposited data

Results flagged for a closer look

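Over 20 groups of 4 nerves (10 fibroblast genes in each genotype), 1 held a nerve far from the others. Pdgfra was 417.7 CPM in the Nae1 cKO nerve K2, beside 241.5 to 252.4 CPM in the other 3, a gap of 0.939 of the whole range. Chance alone flags about 1 in 20 groups.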

How the results depend on the processing

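Over 22 alternatives, the number of the 10 fibroblast genes called higher was 3 to 5, and it was 4 in 17 of them. Dcn and Lum passed in all 22, Pdgfra in 21 and Cd34 in 20. Cd34 did not pass on log2(TPM + 1) (0.67, limma adjusted p = 0.073) or log2(TPM + 0.1) (0.69, adjusted p = 0.076). No gene was called lower in 21 of 22, and 1 (Clec3b) was without both L9 and K2, its lowest WT and highest Nae1 cKO nerves. The median log2 fold change of the 10 genes moved from 0.57 to 0.72 with library totals, 0.68 on log2(TPM + 0.1), 0.66 on log2(FPKM + 1), 0.67 with the nerves named L alone, 0.31 without both L9 and K2 and 0.73 without K1 and L4. Leaving out 1 nerve gave medians from 0.39 (without L9) to 0.63. The median of all genes was itself shifted to 0.16 by library totals and to 0.13 on log2(TPM + 0.1) and log2(FPKM + 1). The groups were apart for 2 genes in deposited TPM. The causes were not tested. Counts of 14 to 52 limit Thy1, and 12 to 81 limit Pi16. The groups share no replicate numbers by which nerves could be paired. With the name letter (K or L) as a term, 4 genes were higher, none was lower and the median was 0.54.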
